A study of Drosophila melanogaster with 27 samples.

Results

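The tetraspanins of the 42E cluster are a run of related membrane protein genes that lie side by side on chromosome arm 2R of Drosophila melanogaster. Of the 18 tetraspanin genes of this cluster in the RefSeq gene table, 9 are described here: lbm, Tsp42El, Tsp42Ea, Tsp42Ed, Tsp42Ee, Tsp42Ef, Tsp42Eg, Tsp42Eh and Tsp42En. They were chosen from values measured on these same arrays, and their spots were then found by name, through the CG number or the symbol of each gene. That found 13 probes for 8 of the 9 genes, out of 16899 probes with values and 11509 named genes tested. Tsp42Ea had no spot under a name of its own. Because the measured values led to the choice of genes, the values below are a description and no p-value is given for these genes.

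Tetraspanins are small proteins that cross the membrane several times and gather other membrane proteins, such as adhesion molecules and receptors, into organised patches. In Drosophila, late bloomer (lbm) is known from motor neurons, where it sits on the growth cone and helps the axon form its synapse on the muscle at the proper time. In the developing eye, photoreceptors form behind the morphogenetic furrow, a front that sweeps across the disc, and every facet is started by a single photoreceptor, the R8 cell.

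The 27 arrays measured RNA of eye imaginal discs from wandering L3 larvae against 1 common reference, as log2 of test over reference. The reference was RNA of whole eye-antennal discs of the w1118 strain, which differentiates normally except for eye pigment. The test RNA came from w1118 fragments cut off behind the furrow (4 arrays), or from whole eye-antennal discs of larvae homozygous for roDom (3), heterozygous for roDom (2), homozygous for E(roDom)2033 (3), heterozygous for E(roDom)2033 (2), homozygous for ato1 (3), homozygous for hh1 (4), or carrying roX63 (3) or Su(roDom)519 (3), whose zygosity the titles do not give. Per the series description, ato1, hh1, roDom and E(roDom)2033 stop the furrow and reduce photoreceptors, while roX63 and Su(roDom)519 add R8 cells. Below, stop-furrow discs means ato1, hh1 and both homozygotes (13 arrays), and extra-R8 discs means roX63 with Su(roDom)519 (6 arrays). Each test RNA came from a few dissected discs and went through 1 more round of amplification than the reference, so a ratio against the reference also holds any effect of that round.

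On 26 arrays, 67.3% to 95.4% of spots lay above background in at least 1 channel, and on posterior replicate 1 this share was 47.5%, with a median net test signal of 31 intensity units. The labels and the file header of roDom homozygote replicate 2 name the dyes in opposite order, and the labels were followed. Read by its labels, this array correlated over all probes at r = 0.514 with replicate 1 and 0.293 with replicate 3. The characteristics of E(roDom)2033 homozygote replicates 2 and 3 say heterozygous, and the titles were followed. The authors' deposited value table runs as reference over test on 26 arrays, opposite to the direction used here.

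Of the members, lbm was low in every stop-furrow disc and high in all extra-R8 discs. In the posterior fragments its log2 ratios were -0.56, 1.08, 1.12 and 0.78 in replicates 1 to 4. In roX63 they were 1.25, 1.27 and 0.57, and in Su(roDom)519 they were 0.73, 1.05 and 0.78. All 6 extra-R8 arrays and 3 of 4 posterior arrays thus read above the reference. The exception, posterior replicate 1, is the dim array named above, where the lbm spot gave a net test signal of 47 units, not above background, and a net reference signal of 151.

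The stop-furrow discs lay on the other side of the reference. In ato1, the mutant of the proneural gene that founds R8, lbm was at -1.79, -1.47 and -1.44. In E(roDom)2033 homozygotes it was at -1.49, -2.03 and -1.44, and in roDom homozygotes at -1.54, -2.21 and -0.94. The values of these 3 genotypes overlapped one another. In hh1, lbm was at -0.94, -0.69, -1.03 and -0.89, above all ato1 and E(roDom)2033 homozygote arrays. All 13 stop-furrow arrays, from -2.21 to -0.69, lay below all arrays of the other conditions, of which the lowest was posterior replicate 1 at -0.56.

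The heterozygotes lay between these sets. With 1 copy of roDom, lbm was at -0.51 and -0.19, and with 1 copy of E(roDom)2033 at 0.26 and 0.08. The fitted value of the latter, 0.17, turned to -0.50 ± 0.24 with array series blocked and to -0.78 ± 0.30 with the arrays of conflicting labels counted as heterozygous. All heterozygote arrays were of array series 7, so the series block could only shift their values against the reference together. It moved roDom heterozygotes likewise, from -0.35 to -1.02 ± 0.24. The fitted values, adjusted for dye, ran from 1.00 ± 0.24 (standard error, as for all fitted values) in roX63 through 0.83 ± 0.24 in Su(roDom)519, 0.64 ± 0.21 in posterior fragments, 0.17 ± 0.29 in E(roDom)2033 heterozygotes, -0.35 ± 0.29 in roDom heterozygotes and -0.85 ± 0.21 in hh1 to -1.54 ± 0.24 in roDom homozygotes, -1.54 ± 0.24 in ato1 and -1.68 ± 0.24 in E(roDom)2033 homozygotes. Between neighbours in this order the step was under 2 standard errors, except from hh1 down to roDom homozygotes, at 0.69 ± 0.32. With all posterior arrays kept, the posterior value did not pass the threshold. Without posterior replicate 1, the dim array and the lowest of its group, it was 1.01 ± 0.17, given as a description only.

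**Figure D1:**
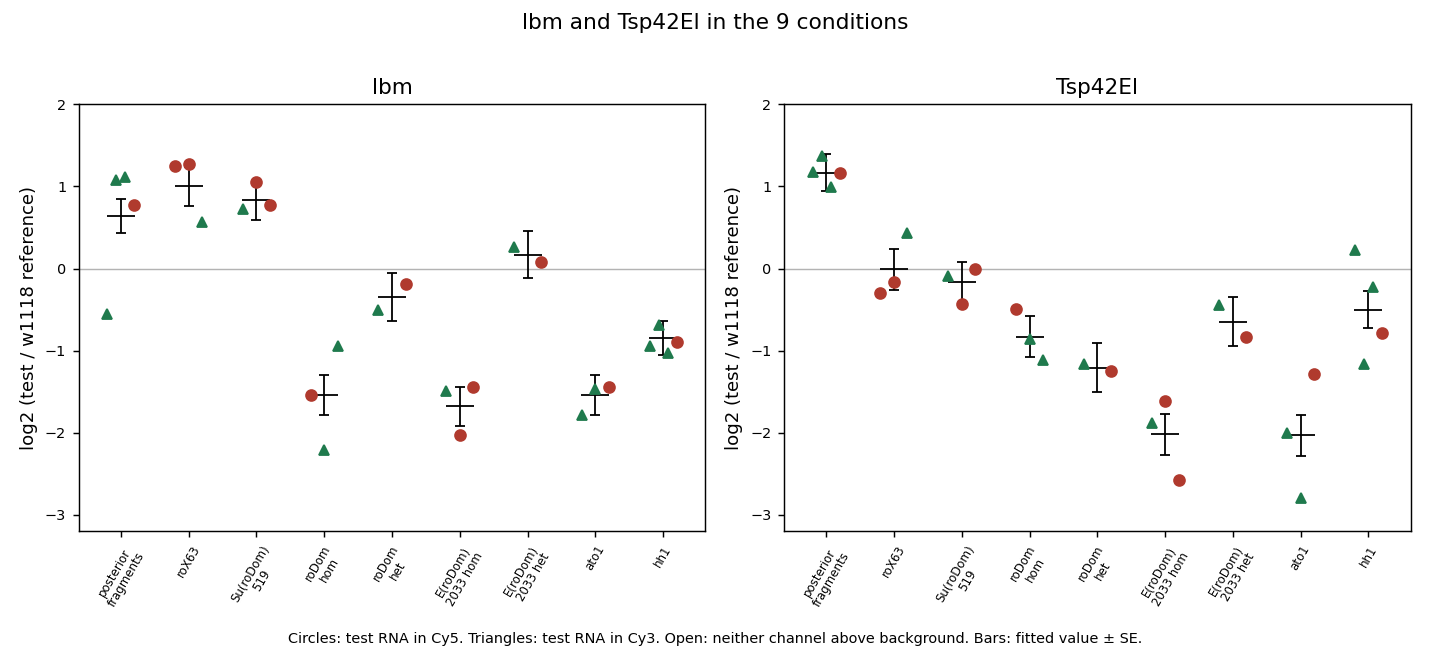
Log2 ratio of test over w1118 reference (vertical axis) of lbm (left) and Tsp42El (right) on each of the 27 arrays, by condition, with the fitted value ± SE as bars and the dye of the test RNA as symbol. For lbm both extra-R8 groups sit above 0 and all stop-furrow arrays sit between -2.21 and -0.69, while for Tsp42El the posterior fragments, between 0.99 and 1.37, stand alone above all other arrays.

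Tsp42El, which lies next to lbm in the cluster, was high in the posterior fragments and near the reference in the extra-R8 discs. It is described by the brightest of its 4 probes, which was above background in both channels on all 27 arrays. In the posterior fragments it was at 1.18, 1.37, 0.99 and 1.16, the highest 4 of the 27 values. In roX63 it was at -0.30, -0.16 and 0.43, and in Su(roDom)519 at -0.09, -0.43 and -0.01, so these 6 arrays lay on both sides of the reference.

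The lowest values of Tsp42El were in ato1, at -2.00, -2.80 and -1.29, and in E(roDom)2033 homozygotes, at -1.88, -1.61 and -2.58. In hh1 it was at 0.22, -1.17, -0.23 and -0.79, a spread wide enough to overlap the extra-R8 discs. In roDom it was at -0.49, -0.86 and -1.12 in homozygotes and at -1.16 and -1.25 in heterozygotes. E(roDom)2033 heterozygotes were at -0.45 and -0.84, above all 3 homozygote arrays.

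The fitted values of Tsp42El ran from 1.17 ± 0.22 in posterior fragments through -0.01 ± 0.25 in roX63, -0.17 ± 0.25 in Su(roDom)519, -0.50 ± 0.22 in hh1, -0.65 ± 0.30 in E(roDom)2033 heterozygotes, -0.83 ± 0.25 in roDom homozygotes and -1.21 ± 0.30 in roDom heterozygotes to -2.02 ± 0.25 in E(roDom)2033 homozygotes and -2.03 ± 0.25 in ato1. The step from posterior fragments to roX63, 1.18 ± 0.33, and that from roDom heterozygotes to E(roDom)2033 homozygotes, 0.81 ± 0.39, exceeded 2 standard errors. The other steps in this order did not.

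The other 3 probes of Tsp42El gave the same picture. Across the 27 arrays the pairwise Pearson correlations of the 4 probes, which may share sequence of 1 transcript, were 0.93 to 0.98. In posterior fragments their fitted values were 0.87 ± 0.23, 1.10 ± 0.18, 1.17 ± 0.22 and 1.27 ± 0.20 for probes a to d, and in ato1 -2.27 ± 0.26, -2.13 ± 0.20, -2.03 ± 0.25 and -2.55 ± 0.22. In roDom homozygotes probe c, the brightest, gave -0.83 ± 0.25 and missed the threshold, whereas probes a, b and d gave -1.24 ± 0.26, -1.10 ± 0.20 and -1.14 ± 0.22 and passed it. Probe a read 0 on posterior replicate 1, where neither channel was above background.

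**Figure D2:**
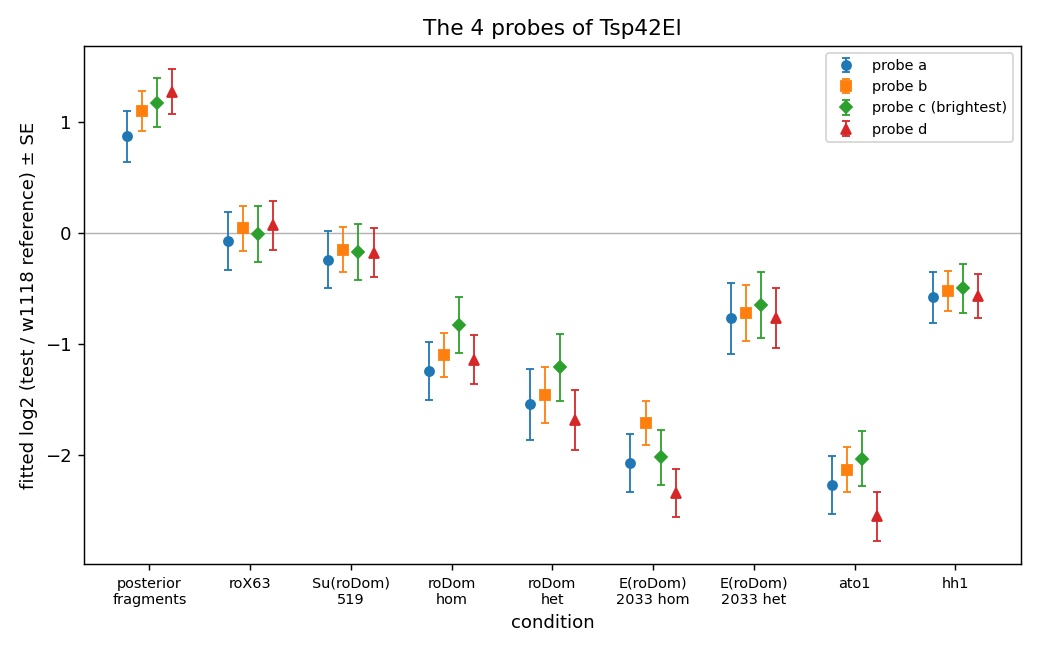
Fitted log2 ratio of test over w1118 reference ± SE (vertical axis) of the 4 probes of Tsp42El in the 9 conditions (horizontal axis). In each condition the 4 probes fall on the same side of 0, except roX63, where all lie within 1 standard error of 0, and posterior fragments lie highest for each probe.

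The patterns of lbm and Tsp42El were alike but not the same. Over the 27 arrays their Pearson correlation was 0.66 and the Spearman correlation 0.68. These are given as a description, since arrays of 1 condition share genotype and tissue and all share the reference. For the other 27 pairs among the 8 measured members, r ran from -0.29 to 0.47. On each array the log2 ratio of lbm minus that of Tsp42El compares their changes against the reference, not their RNA levels. This difference was positive on all 6 extra-R8 arrays (1.55, 1.42 and 0.14 in roX63 and 0.82, 1.48 and 0.80 in Su(roDom)519). In posterior fragments it was -1.74, -0.29, 0.13 and -0.38, so these groups touch, with 0.13 the highest posterior value and 0.14 the lowest extra-R8 value. The fitted difference was -0.53 ± 0.34 in posterior fragments and 1.01 ± 0.38 in both extra-R8 genotypes. The E(roDom)2033 heterozygotes (0.71 and 0.92) and roDom heterozygotes (0.66 and 1.06) also had positive differences, whereas roDom homozygotes were at -1.05, -1.35 and 0.18.

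**Figure D3:**
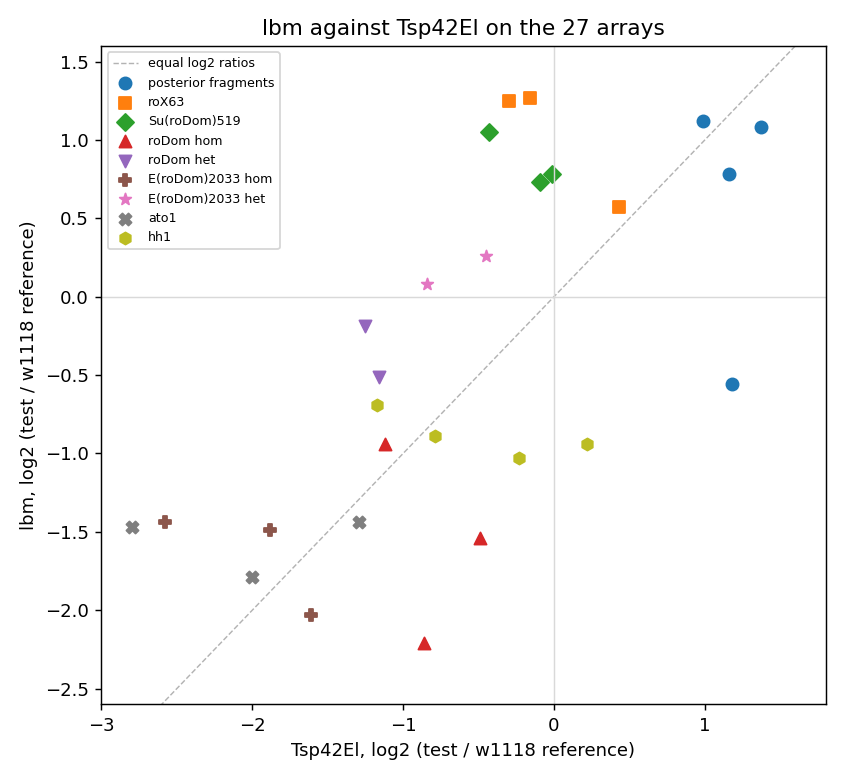
Log2 ratio of lbm (vertical axis) against that of Tsp42El (horizontal axis) on the 27 arrays, coloured by condition, with a dashed line where both ratios are equal. The 6 extra-R8 arrays lie above the dashed line and the posterior fragments lie to the right, 3 of the 4 below the line.

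Markers of photoreceptors and neurons also differed between conditions. Of the 8 markers (chp, elav, nrv3, scrt, sev, Nrt, fne and Appl, all measured), 4 were higher in posterior fragments and none lower, with a median change of 0.73. The median was -1.89 in ato1 and -1.61 in E(roDom)2033 homozygotes, with 5 and 6 markers lower. It was -0.01 in roX63 and -0.30 in Su(roDom)519, where lbm was high, and -0.30 in hh1, where lbm was low. In E(roDom)2033 heterozygotes it was -0.74 beside 0.17 for lbm, and in roDom it was -0.74 in homozygotes and -0.68 in heterozygotes. Called lower were 2 of the 8 in roX63, 1 in Su(roDom)519, 2 in hh1, 2 in E(roDom)2033 heterozygotes and 3 in each roDom group. None was called higher in these conditions. In roX63 the markers ran from -1.58 (chp) to 0.35 (elav), so the median there hides a wide spread. The markers fne (-0.28 to 0.34) and Appl (-0.12 to 0.12) stayed near the reference in all 9 conditions. Per array the median of the 8 markers ran from 0.38 to 0.96 in posterior fragments, from -0.60 to -0.06 in extra-R8 discs and from -2.12 to -0.23 in stop-furrow discs. The part of cell numbers in the values of lbm and Tsp42El was not tested, and in whole discs fewer cells of a type and less RNA per cell cannot be told apart.

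Against the reference, 15 of 72 pairs of a member and a condition passed an adjusted p under 0.05 (limma, Benjamini-Hochberg over 16492 probes), 6 higher and 9 lower. Since the same contrasts led to the choice of genes, nothing is read from these counts. In posterior fragments Tsp42El and Tsp42Ef were called higher, 2 of 8 members against 4.71% of all probes. In roX63, lbm and Tsp42Ed were called higher and Tsp42Ee lower, where 13.5% of all probes were called. In Su(roDom)519 the count was 0 of 8 against 4.71%. In roDom homozygotes lbm was called lower (3.71% of all probes) and in roDom heterozygotes Tsp42El (5.48%). In E(roDom)2033 homozygotes lbm, Tsp42El and Tsp42Eg were called lower and Tsp42Ed and Tsp42Ef higher, where 13.7% of all probes were called, and in the heterozygotes 0 of 8, against 5.2%. In ato1, lbm and Tsp42El were called lower (10.7% of all probes), and in hh1 lbm alone was (5.91%).

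Several of these calls were lost when 1 array was left out, with a value that moved little and a larger standard error. The call of lbm in roX63 was lost without replicate 1 (0.92 ± 0.30) and without replicate 2 (0.91 ± 0.30), and in hh1 without replicate 3 (-0.82 ± 0.25) and without replicate 4 (-0.81 ± 0.26). With array series blocked, lbm in roX63 was at 0.35 ± 0.21. With the day of scanning blocked it was at 0.66 ± 0.21 and Tsp42El in E(roDom)2033 homozygotes at -0.94 ± 0.27, and none of these passed. These fits set values against the reference at the plain mean over array series or over days, some with a single array. All roX63 arrays are of series 7, so the series block shifts them with the other conditions held in series 7 alone. Calls lost in these fits are thus no measure of series or day by themselves. With roDom homozygote replicate 2 turned by its header, lbm in roDom homozygotes was at -0.14 ± 0.42. The call of Tsp42El in roDom heterozygotes was lost without either of its 2 arrays, at -1.24 ± 0.44 without replicate 1 and -1.17 ± 0.44 without replicate 2.

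In differences between conditions the reference cancels. Since the genes were chosen from values of these same arrays, nothing is read from the counts of members called in these differences either. Posterior fragments exceeded stop-furrow discs by 2.52 ± 0.24 for Tsp42El and by 2.04 ± 0.24 for lbm on the log2 scale, and by 0.22 ± 0.06 for Tsp42Ef, so 3 of 8 members were called higher where 7.95% of all probes were called. The extra-R8 discs exceeded stop-furrow discs by 2.32 ± 0.21 for lbm and by 1.26 ± 0.21 for Tsp42El, 2 of 8 members against 8.1% of all probes. In these 2 comparisons the stop-furrow arrays are shared. Without posterior replicate 1, lbm in posterior fragments exceeded stop-furrow discs by 2.42 ± 0.19. With the day of scanning blocked, the extra-R8 difference of Tsp42El was 0.42 ± 0.28 and did not pass.

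Posterior fragments exceeded extra-R8 discs by 1.26 ± 0.28 for Tsp42El, by 0.83 ± 0.25 for Tsp42Ee and by 0.32 ± 0.07 for Tsp42Ef, 3 of 8 members against 7.89% of all probes. For lbm this difference was -0.28 ± 0.28, and 0.08 ± 0.22 without posterior replicate 1. The difference of Tsp42Ef was not called without posterior replicate 4, at 0.32 ± 0.09. That of Tsp42Ee ranged from 0.71 to 0.96 when single arrays were dropped, and was not called in 14 of those 27 fits. Test RNA was in Cy5 on 1 of 4 posterior arrays and on 2 of 3 in each extra-R8 genotype. Without the dye term the Tsp42Ee difference was 1.23 ± 0.40 and was not called. With the day of scanning blocked it was 0.35 ± 0.52, and that of Tsp42Ef 0.19 ± 0.18, neither of them called. Posterior replicate 1 was scanned alone on its day, and replicates 2 to 4 shared theirs with ato1 replicate 1 only. The day-blocked fit thus ties posterior fragments to other conditions through a single ato1 array and cannot decide these differences.

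Within the stop-furrow discs, Tsp42El was lower in ato1 than in hh1 (fitted difference -1.53 ± 0.32), the 1 member of 8 called where 3.14% of all probes were. Without ato1 replicate 2 the value was -1.13 ± 0.33 and was not called. For lbm the same difference was -0.69 ± 0.32. By dose of the E(roDom)2033 allele, lbm differed by -1.85 ± 0.38 between homozygotes and heterozygotes, again 1 of 8 (1.16% of all probes), and Tsp42El by -1.37 ± 0.39, not called. Of the other probes of Tsp42El, d gave -1.56 ± 0.35 and was called, while a (-1.30 ± 0.41) and b (-0.99 ± 0.32) were not. The difference of its brightest probe turned to 0.21 ± 0.43 with the day of scanning blocked. No scanning day held both homozygotes and heterozygotes of E(roDom)2033, so dose and day cannot be told apart within this pair. The day-blocked fit ties these groups only through other conditions and cannot decide their difference. The lbm call was lost without heterozygote replicate 1 (-1.68 ± 0.49) and without homozygote replicate 2 (-1.63 ± 0.41). With the 2 arrays of conflicting labels counted as heterozygous, the lbm difference was -0.70 ± 0.69. By dose of roDom, 0 of 8 members were called in limma, against 0.00606% of all probes (1 probe), with lbm at -1.19 ± 0.38 and Tsp42El at 0.38 ± 0.39. The first turned to 0.21 ± 0.66 with roDom homozygote replicate 2 turned by its header, and the second to -0.10 ± 0.43 with array series blocked. The roDom homozygotes and heterozygotes likewise shared no scanning day. Homozygote replicates 1 and 2 were also of array series 5, and the heterozygotes of series 7.

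Tsp42Ee gave the brightest spots of the members, above background in both channels on all 27 arrays, and its ratio followed the dye. With the test RNA in Cy5 all 12 arrays were below 0, from -1.39 to -0.03 with a median of -0.96. With the test RNA in Cy3 the 15 arrays ran from -0.60 to 1.15 with a median of 0.29, and 10 were above 0. The fitted dye coefficient was -0.96 ± 0.16, whereas the median size of this coefficient over all probes was 0.12 and its 95th percentile 0.47. After adjustment for dye, Tsp42Ee ran from 0.23 ± 0.19 in posterior fragments to -0.75 ± 0.22 in roX63, whose arrays were at -0.84, -1.30 and -0.60. The roX63 call was lost without the dye term (-0.91 ± 0.36), without replicate 2 (-0.72 ± 0.27), without replicate 3 (-0.56 ± 0.28) and with the day of scanning blocked (-0.36 ± 0.33).

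Tsp42Ef varied little between arrays, and its signal was low, with a median net signal of 114 units in each channel for the brighter probe. Its brighter probe was at 0.21, 0.33, 0.22 and 0.28 in posterior fragments, above all 6 extra-R8 arrays, which ran from -0.27 to 0.04. In E(roDom)2033 homozygotes it was at 0.26, 0.23 and 0.12, overlapping the posterior fragments. Its fitted values ran from 0.26 ± 0.06 in posterior fragments to -0.15 ± 0.06 in roX63. The second probe correlated with the first at r = 0.73 and gave 0.23 ± 0.06 in posterior fragments, 0.28 ± 0.07 in E(roDom)2033 homozygotes and -0.26 ± 0.07 in roX63, all past the threshold. Its difference between posterior fragments and stop-furrow discs, 0.17 ± 0.07, was not called, and that of the brighter probe was lost in 6 of the 27 fits that each left out 1 array. The posterior call was lost without replicate 2 (0.24 ± 0.07) or replicate 4 (0.26 ± 0.07), and that in E(roDom)2033 homozygotes without any 1 of its 3 arrays (0.16 to 0.25) and with the day of scanning blocked (0.10 ± 0.12).

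Tsp42Ed read above the reference on most arrays, but much of its signal was near background. In the test channel it was above background on 19 of 27 arrays and in the reference channel on 15. In roX63 it was at 0.35, 0.28 and 0.86, where neither channel of any array was above background, so this call describes spots that were not well measured. In E(roDom)2033 homozygotes it was at 0.35, 0.86 and 0.32. Fitted values ran from 0.51 ± 0.16 in both of these conditions to 0.10 ± 0.16 in roDom homozygotes, each step in the order being within 1 standard error. With the day of scanning blocked the roX63 value was -0.13 ± 0.15. Without any 1 of the 3 roX63 arrays the call was lost, at 0.30 to 0.61, and likewise for E(roDom)2033 homozygotes, at 0.33 to 0.62.

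Tsp42Eg, Tsp42Eh and Tsp42En stayed close to the reference in the fit. Tsp42Eg was lowest in E(roDom)2033 homozygotes, at -0.05, -0.33 and -0.48 by its brighter probe. The first of these arrays had the test RNA in Cy3 and the others in Cy5. This probe also followed the dye, with a fitted dye coefficient of -0.30 ± 0.06. The fitted value, adjusted for dye, was -0.24 ± 0.08. This call was lost in 19 of the 27 fits that each left out 1 array, and the 2 probes of the gene did not vary together (r = -0.06). Tsp42Eh ran from 0.33 ± 0.19 in roDom homozygotes, where the arrays were at 1.09 (reference channel not above background), -0.26 and 0.12, to -0.13 ± 0.23 in E(roDom)2033 heterozygotes. Tsp42En ran from 0.07 ± 0.09 to -0.12 ± 0.09, and its test channel was above background on 16 of 27 arrays, and a difference in this gene may not be detectable at such signals.

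**Figure D4:**
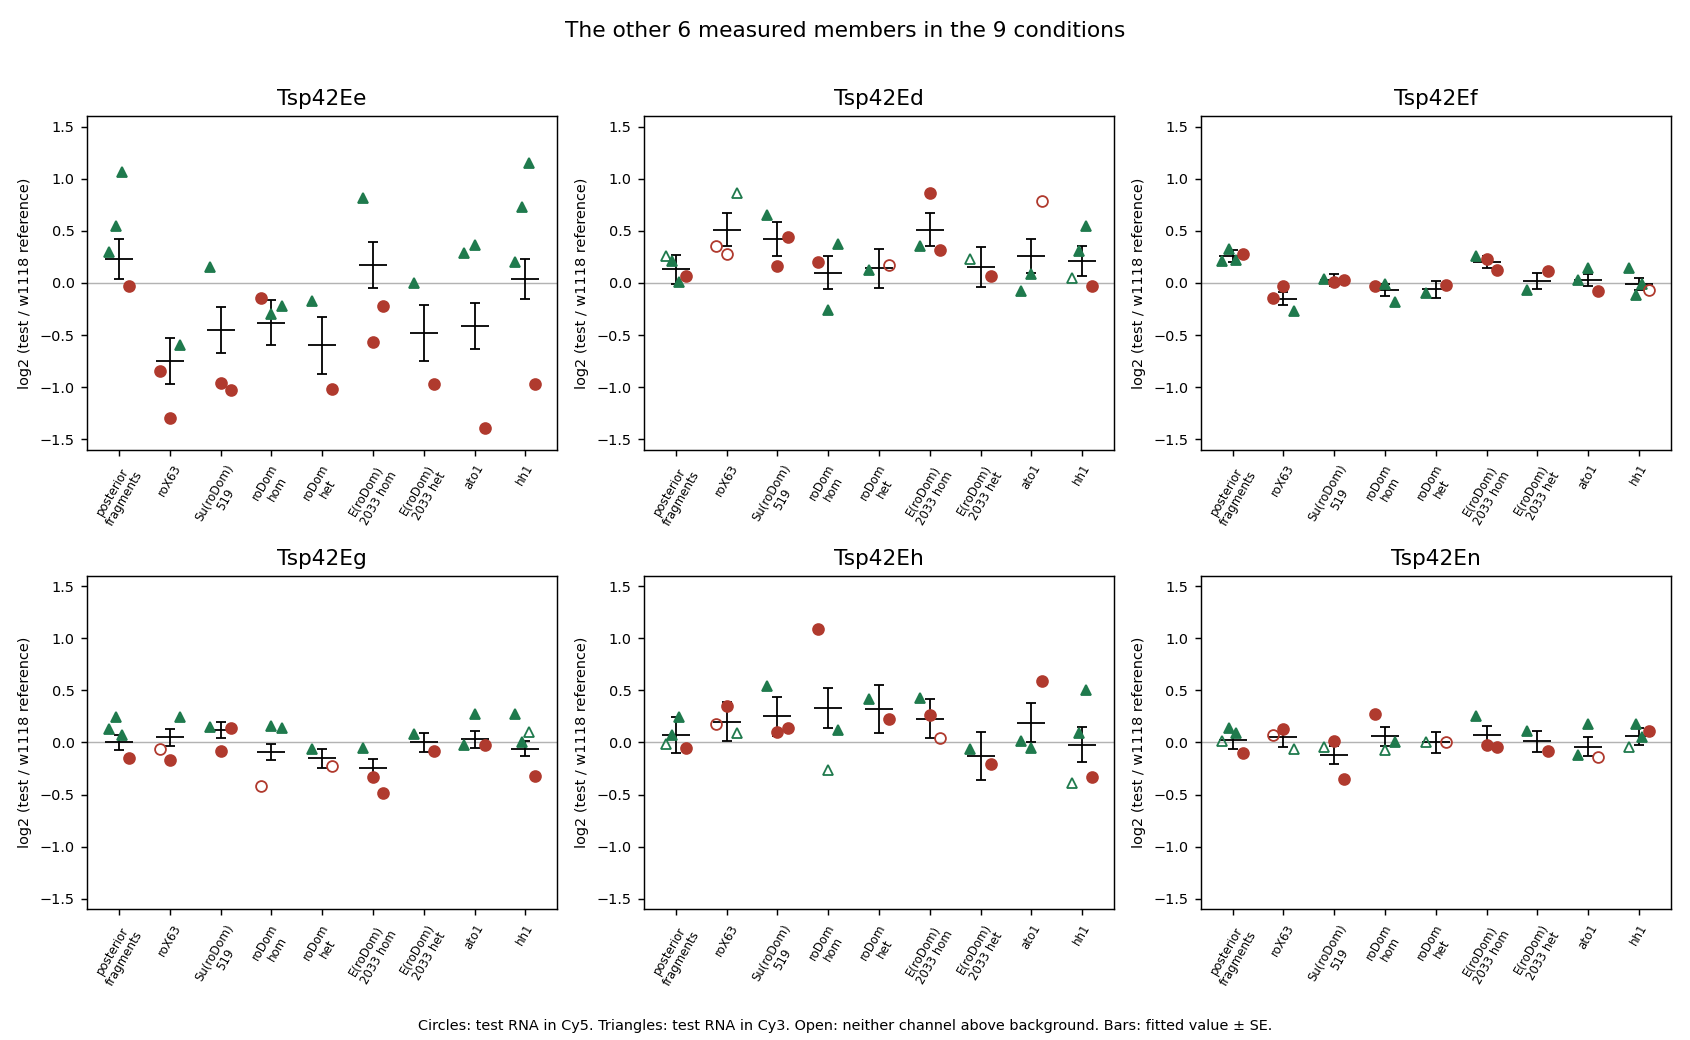
Log2 ratio of test over w1118 reference (vertical axis) of the other 6 measured members on each of the 27 arrays, by condition, with the fitted value ± SE as bars. Circles mark test RNA in Cy5, triangles in Cy3, and open symbols arrays where neither channel was above background. For Tsp42Ee all 12 circles lie below 0, and Tsp42Ed shows open symbols on all 3 roX63 arrays.

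For Tsp42Ea only a spot of ambiguous name was found. CG3364 is an older name of both Tsp42Ea and CG30159, a protein-coding gene that overlaps it, so this spot is not counted among the members. Its arrays ran from -0.56 to 1.03, and its highest fitted value was 0.82 ± 0.25 in roDom heterozygotes (arrays at 0.61 and 1.03). None of its 15 comparisons passed the threshold.

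Of the 16 cluster genes with a probe, 3 had fitted values that spanned more than 1 on the log2 scale over the 9 conditions: Tsp42El (3.20), lbm (2.68) and Tsp42Ej (1.58). Among all named genes 15.1% spanned as much, near the 3 of 16 here, and the median span was 0.49. Tsp42Ee (0.98, place 5) and Tsp42Ep (0.93, place 15) fell just short of 1. Tsp42El and lbm are direct neighbours, at places 12 and 13 of 18, and Tsp42Ej is at place 10, with Tsp42Ek between. The next gene past lbm, Tsp42En, spanned 0.19.

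**Figure D5:**
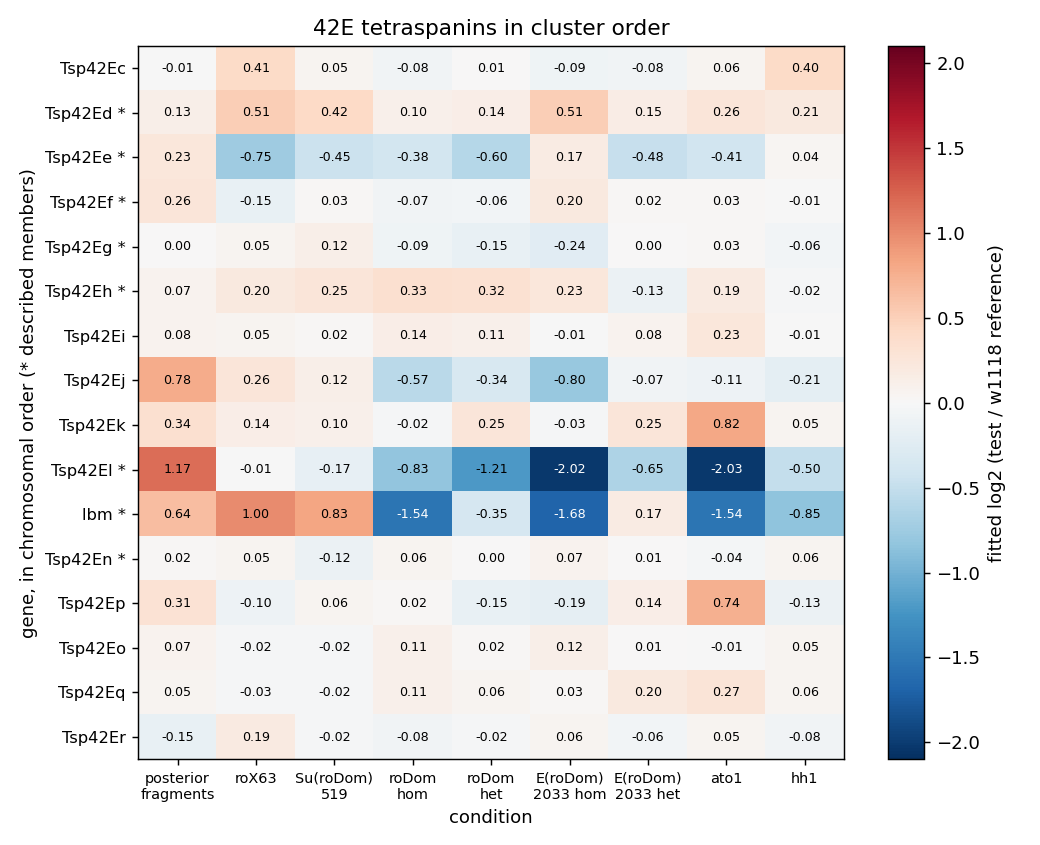
Fitted log2 ratio of test over w1118 reference (colour and printed value) of the 16 measured tetraspanin genes of the cluster, top to bottom in chromosomal order, in the 9 conditions. Values beyond 1.5 in size appear in the neighbouring genes Tsp42El and lbm, and Tsp42Ej runs from 0.78 in posterior fragments to -0.80 in E(roDom)2033 homozygotes.

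Among the other tetraspanins, 25 genes were tested, and 21 of 225 pairs of gene and condition passed, 8 higher and 13 lower. That is 9.33% of the pairs, near the 7.52% of all probes called over the 9 conditions. Of the 33 calls in these and the differences between conditions, 2 passed in every alternative that tested them: Tsp42Ej in posterior fragments and in posterior fragments minus stop-furrow discs. Tsp42Ej, also called sunglasses and known for degrading rhodopsin in lysosomes of the adult eye, rose in posterior fragments by 0.78 ± 0.12 (limma adjusted p = 0.00031), with arrays from 0.41 to 0.96. It fell by 0.80 in E(roDom)2033 homozygotes (adjusted p = 0.00039 in limma) and by 0.57 in roDom homozygotes (adjusted p = 0.019 in limma). Posterior fragments exceeded stop-furrow discs by 1.20 ± 0.13 (limma adjusted p = 2.4e-06), and extra-R8 discs exceeded stop-furrow discs by 0.61 ± 0.12 (limma adjusted p = 0.0024). With the day of scanning blocked the latter was 0.33 ± 0.17 (limma adjusted p = 0.41), and with roDom homozygote replicate 2 turned by its header the roDom value was -0.38 ± 0.16 (limma adjusted p = 0.64). In ato1, where Tsp42El was lowest, Tsp42Ej was at -0.11, with arrays from -0.76 to 0.52.

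Tsp86D, a partner of the Kuzbanian protease in Notch signalling, fell in all stop-furrow genotypes except hh1: by 0.47 in E(roDom)2033 homozygotes (limma adjusted p = 0.00051), by 0.39 in roDom homozygotes (0.0099) and by 0.37 in ato1 (0.004). The roDom value was -0.01 ± 0.14 with the day of scanning blocked (limma adjusted p = 0.98) and -0.02 ± 0.12 with 1 array turned by its header (0.99), and the ato1 call was lost without ato1 replicate 3 (-0.27 ± 0.10, 0.13). Its value in E(roDom)2033 homozygotes was lower than in heterozygotes, at -0.77 ± 0.13 (limma adjusted p = 0.0036), but with the conflicting labels read the other way the difference was -0.47 ± 0.25 (limma adjusted p = 0.86). As stated above, these groups shared no scanning day. Tsp29Fb rose in posterior fragments by 0.40 ± 0.08 (limma adjusted p = 0.0044) and fell by 0.29 in E(roDom)2033 homozygotes (adjusted p = 0.041 in limma), and both calls were lost with the day of scanning blocked (0.32 ± 0.15 and -0.40 ± 0.15). The remaining calls were Tsp42Ec, Tsp33B, Tsp39D, Tsp66E and Tsp74F in roX63, Tsp29Fa and Tsp33B in Su(roDom)519, Tsp66E in roDom homozygotes, Tsp29Fa in roDom heterozygotes, Tsp42Ek, Tsp42Eq and Tsp39D in ato1, and Tsp42Ec in hh1. The Tsp42Ek call rests on 1 array: its ato1 arrays ran from -0.04 to 2.31, and without ato1 replicate 3 the value went from 0.82 to 0.05 ± 0.16 (limma adjusted p = 0.96). Without that array Tsp42Eq (0.14 ± 0.10) and Tsp39D (-0.59 ± 0.29) also lost their calls, and Tsp39D in roX63 was at -0.37 ± 0.28 with the day of scanning blocked.

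Between conditions 12 of 150 pairs of other tetraspanins passed, 11 higher and 1 lower. That is 8% of the pairs, against 4.71% of all probes called over these 6 comparisons. Besides those named, posterior fragments exceeded stop-furrow discs for Tsp29Fb (0.58 ± 0.09, limma adjusted p = 0.00016), Tsp86D (0.53 ± 0.08, 0.00012) and Tsp66E (0.64 ± 0.19, 0.043). Thus 4 of 25 other tetraspanins rose in this comparison and none fell, where 7.95% of all probes were called. With the day of scanning blocked, Tsp29Fb (0.54 ± 0.17), Tsp86D (0.32 ± 0.16) and Tsp66E (0.24 ± 0.42) were not called. As stated above, that fit ties posterior fragments to other conditions through a single ato1 array. The median over the 25 was 0.06, over the 8 members 0.16 and over all probes -0.012. The Tsp66E call was kept in 15 of the 36 alternative fits that tested it.

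By array profile, the 3 named genes most like lbm outside the family were E(spl)mgamma-HLH (r = 0.90), dila (0.86) and E(spl)mdelta-HLH (0.84), over 27 arrays and 1729 candidate genes that spanned at least 1 on the log2 scale. The E(spl) genes encode repressors that Notch signalling turns on, and dila encodes a ciliary protein of sensory neurons. For Tsp42El they were CG13288 (0.93), Nrt (0.92) and CG15117 (0.92), of which Nrt encodes the adhesion protein Neurotactin and is also on the marker list above. For Tsp42Ee they were nrv2 (0.89), CG33095 (0.85) and LRP1 (0.84), and these correlations include the dye effect. The best r was 0.78 for Tsp42Ef (Rev1), 0.73 for Tsp42Eg (Reph), 0.69 for Tsp42Ed (Ance-5), 0.65 for Tsp42Eh (CG5177) and 0.61 for Tsp42En (CYTB). By Spearman correlation 1 of the 3 genes of lbm remained among its best 3, and 0 of those of Tsp42El. Their ranks changed more than their values, which were 0.92, 0.85 and 0.85 for lbm and 0.92, 0.91 and 0.90 for Tsp42El.

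Markers of other cell types also differed between conditions. The muscle list was highest in roX63, with a median of 1.79 over 5 genes and 3 of 5 higher, and its array medians there ran from 1.33 to 2.65, against -0.44 to 1.00 in posterior fragments. Fat body markers had a median of 1.11 in roX63, 1.19 in E(roDom)2033 heterozygotes and 1.21 in ato1, with 2, 1 and 0 of 4 called higher. Their array medians spread widely, from 0.21 to 2.21, from 0.13 to 2.25 and from 0.19 to 2.80. The part of muscle and fat body in the values of Tsp42Ed and Tsp42Ee in roX63 was not tested. The antennal, progenitor, glial, hemocyte and tracheal lists had medians from -1.05 (hemocyte, roDom homozygotes) to 0.58 (hemocyte, roX63).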

How the data were processed

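The members and gene lists were chosen with earlier results of these data known. Per the file headers, the deposited scanner files give the pixel intensity and local background of both channels for 17664 spots an array, and a score that marks bad or absent spots. The deposited table of the authors' log2 ratios was used only as an alternative. A score at or below -75 removed a spot. Background was corrected by normexp (limma 3.58.1, R 4.3.3, offset 50) and log2 ratios normalised by global loess, turned to test over reference by the labels' dyes and averaged per probe. A spot counted as above background when it exceeded the local background by 2 SD. A single model in limma, tested on simulated data, covered the 27 arrays and held a mean for each of 9 conditions plus the dye. Fits blocked on array series or scanning day set values against the reference at the plain mean over series or over 9 days. Series 6 was posterior replicate 1 alone, and some days held a single array, so such values carry a shift shared by several conditions. Day and condition also overlapped in part. Comparisons were adjusted by Benjamini-Hochberg over 16492 probes with at least 2 arrays in each group. Replicates were numbered in accession order. The series text calls them independent without saying what was separate, so p-values measure the spread between these arrays, whose number limits the precision. Names came from the RefSeq gene table, which matched 12714 probes on locus tag, 2753 on an older synonym and 34 on symbol, while 1398 stayed unmatched. Genes are shown by their brightest probe. Named were every member, other tetraspanins past the threshold and, for likeness, the best 3 genes.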

Additional observations from a re-analysis of the deposited data

How the results depend on the processing

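Leaving out 1 array in turn moved the number of members called from 11 to 17 against the reference over all conditions, 0 to 3 in roX63, 2 to 5 in E(roDom)2033 homozygotes, 1 to 3 in posterior fragments, 1 to 2 in roDom homozygotes, 0 to 1 each in Su(roDom)519, roDom heterozygotes, hh1 and ato1 minus hh1, 0 to 2 by dose of E(roDom)2033, 2 to 3 in posterior minus stop-furrow and 1 to 3 in posterior minus extra-R8, and for the other tetraspanins from 7 to 14 between conditions. With array series as a block, 9 member calls remained in number over all conditions, 0 in roX63 and 2 in E(roDom)2033 homozygotes, and 7 for the other tetraspanins. Blocking on the day of scanning, the counts were 0 in roX63, 1 in posterior fragments, 2 in roDom homozygotes, 3 in E(roDom)2033 homozygotes, 1 in E(roDom)2033 heterozygotes, 2 by dose of E(roDom)2033, 1 in extra-R8 minus stop-furrow and 1 in posterior minus extra-R8, and 43 of 120 member values changed sign, 1 of them called (Tsp42Ed in roX63, -0.13). Among the uncalled ones, Tsp42El turned to 0.21 by dose of E(roDom)2033 and to 0.28 in hh1, lbm to -0.23 in E(roDom)2033 heterozygotes and to 0.19 in posterior minus extra-R8, and Tsp42Ed turned in 9 further comparisons. Part of this is the shift shared by conditions: Tsp42Ed also went from 0.42 to -0.21 in Su(roDom)519 and from 0.14 to -0.58 in roDom heterozygotes. Of the other tetraspanins' calls, Tsp66E (-0.01) and Tsp74F (-0.17) turned in posterior minus extra-R8. As a random block (correlation 0.238) the day of scanning gave 1 in roX63, 3 in E(roDom)2033 homozygotes, 2 in roDom homozygotes and 1 in posterior minus extra-R8. The other settings, array series included, turned 0 to 10 member values each, none of them called, and leaving out single arrays turned 28, again none called. With conflicting labels read as heterozygous, 7 calls were made over all conditions: 0 in E(roDom)2033 homozygotes, 1 in their heterozygotes, 1 in roX63, 0 in hh1, 0 in roDom heterozygotes and 0 by dose of E(roDom)2033, with 12 for the other tetraspanins. With 1 array turned by its header there were 0 in roDom homozygotes, 0 in roDom heterozygotes, 0 in hh1 and 0 by dose of E(roDom)2033, and 11 and 5 for the other tetraspanins against the reference and between conditions. Print-tip loess gave 2 in roDom homozygotes and 2 by dose of E(roDom)2033. Without background subtraction there were 2 in E(roDom)2033 homozygotes and 1 in Su(roDom)519, where leaving out dim probes or the dye term also gave 1. The deposited table, with 5616 probes tested and 3 members among them, gave 2 in E(roDom)2033 homozygotes, 2 in roDom homozygotes, 1 in Su(roDom)519 and 2 by dose of E(roDom)2033, with or without its mirrored column (an alternative chosen after seeing the data), and for the other tetraspanins 8 with it, 10 without it and 5 between conditions in both. The cause of these moves was not tested, except that the deposited table tests fewer probes and that blocks shift values against the reference. No paired analysis was possible because replicate numbers were given in accession order and the labels pair no arrays. Signals near background limit Tsp42Ed, Tsp42Eg, Tsp42Eh and Tsp42En. Tsp42Ef was also dim, though its brighter probe was above background in each channel on 25 of 27 arrays.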

Other observations

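In the authors' deposited value table, the column of hh1 replicate 2 is the mirror image of the column of Su(roDom)519 replicate 3. Over the 10353 probes that both hold, the sum of the values is 0 for every probe. The correlation of this column with the ratios of its own scanner file, turned to test over reference, was -0.137, while for the other 26 arrays it ran from -0.981 to -0.82, and for Su(roDom)519 replicate 3 it was -0.941. The results above use the scanner files. On roDom homozygote replicate 2, whose header and labels disagree on the dyes, the deposited column correlated at -0.881 with the ratio turned by the labels, the same sign as on the other arrays.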
